A study of Branchiostoma belcheri with 3 samples.

Results

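The miR-92 and miR-25 probes of a microarray are described across 3 organs of an amphioxus, Branchiostoma belcheri, which is an invertebrate relative of the vertebrates. They were taken by name, as every miRNA probe of any species with the number 92 or 25, and 42 of the 1686 miRNA probes met that rule, 39 of them miR-92 and 3 miR-25. The 42 probes have 42 different target sequences from 11 species. The set was selected on its densities in the 3 organs, high in gill and low in the others, so its differences between organs are given as descriptions and are not support for anything. Adult animals taken from the sea and kept in culture were used, and their gill, intestine and hepatic caecum, a digestive pouch of the gut, were collected. Each organ was represented by 1 array, hybridised with Cy3-stained small RNA (below 300 nt) from a pool of 5 adults. With 1 array per organ no test between organs was possible, organ and array cannot be told apart, and fewer cells of a type cannot be told apart from less RNA per cell.

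A miRNA is a short RNA that guides a silencing complex to messenger RNAs, mostly through its bases 2 to 8, called the seed. A hairpin precursor gives a 5p and a 3p strand, and in the miR-92 and miR-25 family the 3p strand is the usual mature form. In vertebrates this family shares its seed with miR-32, miR-363 and miR-367, miR-92a and miR-25 lie in polycistronic clusters with miRNAs such as miR-17, miR-18, miR-19 and miR-106 whereas miR-92b does not, and the family is known for control of cell proliferation and survival and of blood vessel growth.

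The amphioxus 3p targets and the vertebrate miR-25 target are shown first, since the values below turn on how alike these sequences are. They are printed 5′ to 3′ as the deposited array files give them, with the seed in capitals.
bbe-miR-92c-3p: uAUUGCACuugucccggcucg
bbe-miR-92d-3p: uAUUGCACuuauccuggccugu
bfl-miR-92a: uAUUGCACuugucccggccuuu
bfl-miR-92b-3p: cAUUGCACucgucccggccuga
bfl-miR-92c: uAUUGCACuugucccggcuugc
dre-miR-25: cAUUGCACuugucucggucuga

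The prefixes bbe and bfl stand for B. belcheri and for the related amphioxus B. floridae, and dre for zebrafish. The other probes came from the sea squirts Ciona intestinalis (cin) and C. savignyi (csa), the larvacean Oikopleura dioica (odi), sea lamprey (pma), the acorn worm Saccoglossus kowalevskii (sko), the sea urchin Strongylocentrotus purpuratus (spu), Xenoturbella bocki (xbo) and the frog Xenopus tropicalis (xtr). By sequence, 30 probes were of the 3p type, with the amphioxus seed or 1 base different in it, and 12 were of the 5p type. Among the former, 9 shared bases 1 to 18 with bfl-miR-92a, and 8 shared bases 2 to 18 with bfl-miR-92b-3p, which differs from the first in base 10. These are called the bfl-miR-92a core and the bfl-miR-92b-3p core, a division made after the values had been seen. The other 13 probes of the 3p type depart from both cores.

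The 5p strands of the amphioxus hairpins have other seeds, which are in capitals here to show that they differ from the 3p seed.
bbe-miR-92a-5p: aGGUCGUGauagguggcaauguu
bbe-miR-92b-5p: aGGUCUGGauaguugcaaucuu
bbe-miR-92d-5p: aGGUCAGGauggaguguuaugcu
bfl-miR-92b-5p: aGGUCUGGacaguugcaaucuu
bfl-miR-92d-5p: aGGUCAGGauugaguguuaugcu

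The values are spot densities in linear scanner units, each the mean of 2 spots with the SD of these spots, which is a technical error within 1 array. A probe was called detected when its mean density lay more than 3 SDs above the mean of the 304 spots without a probe, which set the thresholds at 139 (gill array), 220 (intestine array) and 618 (hepatic caecum array). The blank spots of the hepatic caecum array had an SD of 144.2, against 10.6 on the gill array, so its threshold was the highest. The hepatic caecum densities were read with the grid turned by 180 degrees. Its control spots then matched those of the other arrays (r = 0.977 over 596 spots, against 0.261 as deposited), as they nearly did with the rows mirrored (r = 0.970), and the miRNA spots separated these placements, with r = 0.870 turned, -0.009 mirrored and 0.006 as deposited. Under the deposited names the blank spots of that array set a threshold of 22217, which 0 of 39 miR-92 probes passed, and 2 of them, csa-miR-92c at 6944 and xbo-miR-92a at 2260, lay above 618. Of the marker miRNAs of other cell types, by vertebrate knowledge, those of liver (miR-122, 0 of 2), intestinal epithelium (miR-192, miR-194 and miR-215, 0 of 9) and blood (miR-144 and miR-451, 0 of 6) were detected on no array, and muscle markers (miR-1, miR-133 and miR-206) were detected in 15, 4 and 0 of 35 probes on the gill, intestine and hepatic caecum arrays. Neural markers (miR-124 and miR-9) were detected in 8, 1 and 1 of 22 probes, and their summed density above blank was 5957, 434 and 1509. For pancreas markers (miR-216 and miR-217) the numbers were 12, 8 and 7 of 14 probes, and for epithelial markers (miR-200, miR-141 and miR-429) 17, 12 and 11 of 23. The sums fell from gill to the other arrays, to 10588 and 14595 from 131600 for the pancreas markers and to 16455 and 38225 from 151448 for the epithelial ones. These sums are unscaled, and that of all 1686 miRNA probes fell too, from 2753250 to 886606 and 644677. After quantile normalization of the 3 arrays, median log2 differences from gill were -0.40 (intestine) and 0.87 (hepatic caecum) for epithelial markers. For pancreas markers they were -0.74 and -0.42, and for all miRNA probes 0.45 and 0.70, each over probes detected in both organs. The part of these cell types in the values below was not tested.

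In the gill the miR-92 probes were among the brightest on the array. Their summed density above blank was 29.7% of that of the 1686 miRNA probes in gill, 3.52% in intestine and 1.64% in hepatic caecum, where near-identical probes count the same RNA repeatedly. Of the 50 highest densities in gill, 19 were miR-92 probes (background 2.97% of probes), and 0 of the 50 highest in intestine or in hepatic caecum were. In gill 33 of 39 miR-92 probes were detected (background 27.0%), in intestine 26 (background 11.9%) and in hepatic caecum 10 (background 7.18%). Of the 3 miR-25 probes 1, 0 and 0 were detected. The share detected was 84.6%, 66.7% and 25.6% of the miR-92 probes, so it fell in the order in which the thresholds rose. The hepatic caecum count depended on the rule, at 25 with a threshold from the median and the median absolute deviation of the blank spots and 17 with a density over 500. The shares of all probes detected under these rules are not given here.

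**Figure D1:**
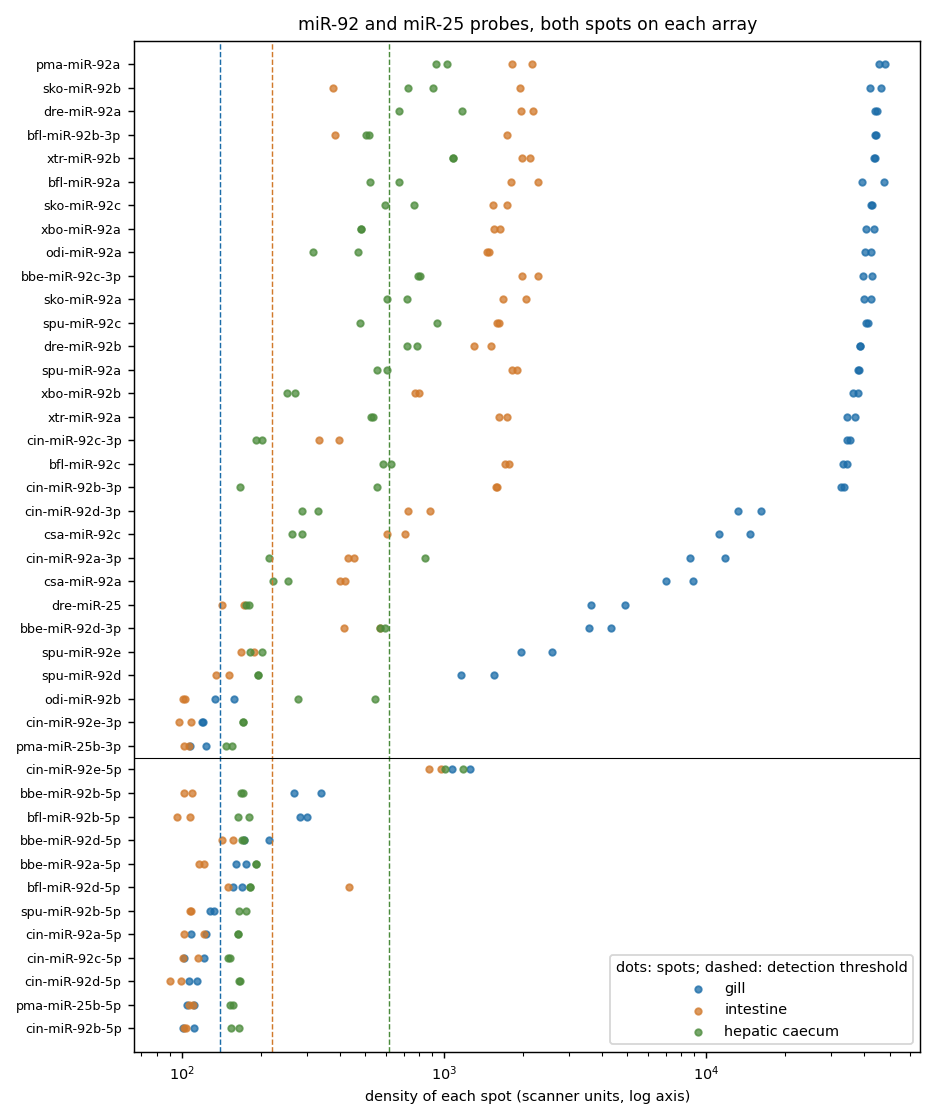
Density of both spots of the 42 miR-92 and miR-25 probes (one row each) on the gill, intestine and hepatic caecum arrays, in scanner units on a log axis. The 3p-type probes are above the horizontal line and the 5p-type below it, and dashed lines mark the detection thresholds of 139, 220 and 618. The core probes lie between 33050 and 46655 in gill, and cin-miR-92e-5p has nearly one density on the 3 arrays.

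The B. belcheri 3p strand with the highest density was bbe-miR-92c-3p, at 41268 ± 2308 in gill, 2129 ± 205 in intestine and 800 ± 11.2 in hepatic caecum. Its spots in the 3 organs did not overlap, and gill stood highest. After quantile normalization of the 3 arrays its log2 difference was -1.98 ± 0.16 for intestine minus gill, -3.25 ± 0.08 for hepatic caecum minus gill and -1.27 ± 0.14 for hepatic caecum minus intestine, where the error comes from the spots alone. The other B. belcheri 3p strand, bbe-miR-92d-3p, had 3953 ± 553 in gill, 491 ± 110 in intestine and 580 ± 17.2 in hepatic caecum, where it was not detected. Its gill spots lay above both others, while intestine and hepatic caecum could not be ordered, and its log2 difference for intestine minus gill was -0.49 ± 0.40, which became -3.08 without normalization between arrays.

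Both B. belcheri strands carry the same seed and differ in the middle and at the end of the sequence. With bbe-miR-92c-3p as the reference, whose base comes first and whose positions are counted from 1 at the 5′ end, bbe-miR-92d-3p carries G11A, C15U, U19C and C20U.

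The B. floridae probe bfl-miR-92a had 43290 ± 5890 in gill, 2031 ± 340 in intestine and 596 ± 107 in hepatic caecum, below that array's threshold. The probe bfl-miR-92c, which differs from bbe-miR-92c-3p by C20U and 1 more base at the end, had 33792 ± 851, 1732 ± 45.8 and 606 ± 30.3, and its hepatic caecum value was the nearest below the threshold. The order gill, intestine, hepatic caecum was that of bbe-miR-92c-3p. The probe bfl-miR-92b-3p had 44109 ± 369 in gill and 510 ± 10.7 in hepatic caecum, but its intestine spots disagreed, at 384 and 1731. The value in intestine therefore spans the hepatic caecum level, and a fall from intestine to hepatic caecum cannot be read for it.

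The second probe whose intestine spots disagreed was sko-miR-92b, at 375 and 1946, with 44167 ± 3128 in gill and 817 ± 125 in hepatic caecum. For each of these probes the first repeat spot was the low one. From the second spots alone the gill density above blank was 22.9 times that in intestine for sko-miR-92b and 27.4 times for bfl-miR-92b-3p, against 178 and 163 times from the first spots. Spots more than 2-fold apart occurred for 3 of the 42 probes in intestine, for 2 in hepatic caecum and for 0 in gill.

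The 17 core probes, from 10 of the 11 species, had similar densities within each array. In gill their densities ran from 33050 to 46655, which is a spread of 1.41-fold, and they filled 17 of the places from 12th to 34th. In intestine they ran from 1058 to 2129, a spread of 2.01-fold, in places 59 to 104, and in hepatic caecum from 360 to 1081, a spread of 3.01-fold, in places 92 to 188. The order gill above intestine above hepatic caecum held for the densities of 17 of 17. Every gill spot lay above both intestine spots in 17 of 17, and every intestine spot lay above both hepatic caecum spots in 15 of 17, the exceptions being bfl-miR-92b-3p and sko-miR-92b. Of the 17, 17 were detected in gill and in intestine (background 27.0% and 11.9%) and 9 in hepatic caecum (background 7.18%). These are densities before scaling between arrays, and the places do not depend on it.

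The cores, which differ in base 10, were then compared. The bfl-miR-92a core (9 probes) had a median of 41036 there and the bfl-miR-92b-3p core (8 probes) 42388. In intestine the medians were 1853 and 1597, and in hepatic caecum 606 and 693. In 2 pairs of probes base 10 was the only difference. From dre-miR-92a to sko-miR-92c, a change of U10C, the density went from 44166 ± 561 to 42632 ± 227.2 in gill, from 2072 ± 157 to 1633 ± 143 in intestine and from 918 ± 350 to 679 ± 123 in hepatic caecum. The spots of this pair did not overlap in gill or in intestine and overlapped in hepatic caecum. From sko-miR-92b to spu-miR-92c, also U10C, it went from 44167 ± 3128 to 40927 ± 508 in gill, while the intestine values cannot be compared because of the low spot of sko-miR-92b.

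Gill was compared with intestine as a ratio of densities above blank, which uses no scaling between arrays. It ran from 20.4 to 42.2 (median 22.5) in the bfl-miR-92a core and from 22.5 to 46.7 (median 28.2) in the bfl-miR-92b-3p core. From the second spots alone, without the low intestine spots, it ran from 20.1 to 25.5 and from 21.8 to 30.3. The cores overlapped in either case. The 29 spike-in probes detected on both arrays had ratios from 0.826 to 2.11 (median 1.23), the 4 probes of 5S rRNA from 1.24 to 2.16, and the other 171 miRNA probes from 0.0859 to 62.7 (median 2.80). Of these 171, 9 reached the lowest core ratio.

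**Figure D2:**
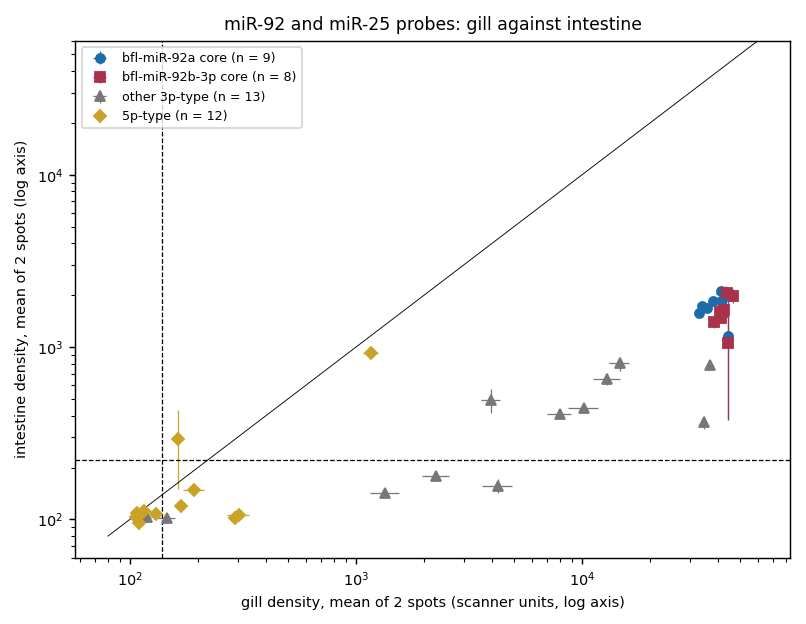
Gill density against intestine density of the 42 probes, each a mean of 2 spots in scanner units on log axes, with bars that span both spots, dashed lines at the detection thresholds and a solid line of equal density. Both cores lie together far below the line of equal density, and bfl-miR-92d-5p and cin-miR-92e-5p lie near that line.

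The 13 other 3p-type probes show how densities went with departures from the core sequences. Those discussed next are printed with the bases that differ from bbe-miR-92c-3p in capitals.
cin-miR-92a-3p: uauugcacuugucccggUCUU
cin-miR-92b-3p: uauugcacuugucccggcCUU
cin-miR-92c-3p: uauugcacuCgucccggUCUAu
cin-miR-92d-3p: uauugcacCugucccggcCG
xbo-miR-92b: uaCugcacuCgucccggcCUAgc
spu-miR-92e: uauugcacuuACcccggcuUA
odi-miR-92b: uauugcacuGgucccgAcuAAu
cin-miR-92e-3p: uauugcacuuCCcUAgAcuG
pma-miR-25b-3p: CauugcacuAgucUcAgUCUgc

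A pair of probes that differ in base 18 had different densities. The probes cin-miR-92a-3p and cin-miR-92b-3p differ only by U18C, and their gill densities were 10202 ± 2218 and 33050 ± 766, a ratio of 3.24. In intestine they were 442 ± 17.4 and 1588 ± 10.3, a ratio of 3.59, and no spots of the pair overlapped in either organ. In hepatic caecum the spots of cin-miR-92a-3p were 847 and 214, and the pair could not be ordered. The probe csa-miR-92a, which differs from cin-miR-92a-3p by U21A, had 7975 ± 1330 in gill and 409 ± 13.2 in intestine, close to it. Changes in bases 19, 21 or 22 between core probes gave gill ratios between 0.960 and 1.31, and probes that differ only by 1 or 2 bases of length gave 0.763 to 1.14.

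The probe cin-miR-92c-3p has the bfl-miR-92b-3p core apart from C18U. Its gill density of 34817 ± 560 was just under the lowest of that core, 38437, whereas its intestine density of 365 ± 45.5 was under all of that core, 1058 to 2054, and its hepatic caecum density of 196 ± 8.0 was not above threshold. Its gill density above blank was 139 times that in intestine, the highest ratio from the means of both spots among the 26 miR-92 probes detected in both organs, and from the second spots alone it was 121.6. The probe xbo-miR-92b has the base 10 of that core and U3C, a change within the seed, and had 36974 ± 1217 in gill, 786 ± 21.7 in intestine and 261 ± 12.97 in hepatic caecum, with a ratio of 55.0. Gill values of these probes thus lay near the cores while their intestine values lay below them. The probe cin-miR-92d-3p, which carries U9C next to the seed, had 14697 ± 2156 in gill, 806 ± 107 in intestine and 309 ± 29.96 in hepatic caecum.

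Probes with further changes had lower densities in gill. The probe spu-miR-92e, with G11A and U12C, had 2267 ± 440 in gill and 178 ± 14.1 in intestine, the nearest below that threshold, and was at least 2.68-fold higher in gill. The probe odi-miR-92b, with U10G and G17A, had 146 ± 17.1 in gill, the nearest above threshold, 101 ± 1.2 in intestine and 412 ± 190 in hepatic caecum, where its spots were 277 and 547. It was not detected there, and its spots nevertheless lay above those in gill, unlike those of the core probes. The blank spots of the hepatic caecum array were brighter too, with a mean of 185 against 107 in gill. The probe cin-miR-92e-3p, with 5 changes in bases 1 to 18, was detected on no array and had 120 ± 0.9 in gill. Counted over bases 1 to 18 against the nearest amphioxus 3p target, the 11 probes with 0 mismatches had gill densities from 3953 to 44167 (median 41036), the 11 with 1 from 7975 to 46655 (median 40927) and the 5 with 2 from 146 to 36974 (median 2267). The single probes with 3, 4 and 5 mismatches had 4257, 115 and 120, so the groups overlapped and the fall was not steady. Across the 30 probes of the 3p type, Spearman's rho between density and these mismatches was -0.56 in gill, -0.73 in intestine and -0.66 in hepatic caecum, where 9 of the 30 were detected. Against the nearest B. belcheri target over its whole length it was -0.34, -0.59 and -0.58, and in gill -0.18 over the 28 probes detected there. These 30 points share bases, RNA and arrays, and rho of gill density with GC content was 0.56, so they describe these probes only. The order of the 30 was similar on the 3 arrays, with rho of 0.80 between gill and intestine, 0.77 between gill and hepatic caecum and 0.81 between intestine and hepatic caecum.

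Of the miR-25 probes, dre-miR-25 was detected in gill alone. It had 4257 ± 893 there, 157 ± 20.8 in intestine and 178 ± 2.7 in hepatic caecum, and was at least 4.12-fold higher in gill than in intestine. Its target differs from bbe-miR-92c-3p by U1C, C14U and C18U in bases 1 to 18, and its gill density was near that of bbe-miR-92d-3p. The lamprey probes had densities near those of blank spots, 115 ± 11.7, 104 ± 3.3 and 151 ± 5.9 for pma-miR-25b-3p and 107 ± 4.5, 108 ± 3.1 and 154 ± 2.0 for pma-miR-25b-5p in the 3 organs. Neither B. belcheri nor B. floridae has a miR-25 probe among the 42.

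The 5p strands gave a different picture from the 3p strands. Of 12 such probes 6 were detected in gill (background 27.0%), 2 in intestine (background 11.9%) and 1 in hepatic caecum (background 7.18%). The brightest amphioxus one, bbe-miR-92b-5p, had 303 ± 49.5 in gill, 105.6 ± 5.3 in intestine and 169 ± 2.5 in hepatic caecum, and bfl-miR-92b-5p, which differs from it by 1 base, had 291 ± 13.6, 101 ± 7.8 and 172 ± 11.5. Each was detected in gill alone. The probe bbe-miR-92a-5p had 168 ± 10.7, 119 ± 3.8 and 191.7 ± 0.1, and bbe-miR-92d-5p had 193 ± 29.6, 149 (spots at 156 and 142) and 171 ± 2.8, so both passed the gill threshold by little and no other. For bfl-miR-92d-5p the gill density was 163 ± 8.7 and the hepatic caecum density 182 ± 0.1, and its intestine spots were 434 and 150, whose mean of 292 was the nearest above threshold there. At the gill densities of these amphioxus 5p probes, only the miR-92b ones would have passed the intestine threshold and none that of the hepatic caecum.

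The exception among the 5p strands was cin-miR-92e-5p, at 1163 ± 127 in gill, 921 ± 69.0 in intestine and 1089 ± 120 in hepatic caecum. It was detected on all 3 arrays, its spots in gill and hepatic caecum overlapped, and those in intestine lay below both. Its log2 differences from gill, 1.99 ± 0.20 in intestine and 2.60 ± 0.24 in hepatic caecum after quantile normalization, became -0.33 and -0.17 without normalization between arrays, so its direction was that of the scaling. Its 3p partner, cin-miR-92e-3p, was not detected.

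Over the organs, probes that passed the detection threshold in both organs of a pair were counted as lower or higher when they differed by a factor of 2 or more. In intestine against gill 23 of 26 miR-92 probes were lower (background 21.8%) and 2 higher (background 39.6%), and 20 of the 171 other probes were lower. The median log2 difference was -2.26, beside 0.45 for all 197 miRNA probes detected in both. In hepatic caecum against gill 9 of 10 were lower (background 9.40%) and 1 higher (background 41.0%), with a median of -3.49 beside 0.70 for all 117. In hepatic caecum against intestine 3 of 10 were lower (background 12.1%) and 0 higher (background 24.1%), with a median of -0.86 beside 0.32 for all 116. The count of lower probes in this last pair was 8 of 10 without normalization and with cyclic loess (22 of all 116 probes in each). It was also 8 of 10 with centring on shared probes (24 of all 116), the 75th percentile (23) or spike-ins (26). With 5S rRNA it was 9 of 10, where 60 of all 116 were lower. The comparisons with gill share the gill array, and the contrasts were used to choose the set, so nothing is read from the shares. By sequence type, 23 of 24 probes of the 3p type were lower in intestine than in gill and 0 were higher, the remaining one being bbe-miR-92d-3p, which was more than 2-fold lower too with centring on the 75th percentile (-2.78), spike-ins (-2.80) or 5S rRNA (-2.61). The 2 higher probes were of the 5p type.

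For the probes detected in gill but not in hepatic caecum only bounds can be given, of which 14 of 24 were at least 2-fold. A bound sets the gill level against the probe's own hepatic caecum level or, where higher, that of the faintest detected probe, so for probes just under the threshold, bfl-miR-92a and bfl-miR-92c among them, it equals the measured difference. The amphioxus probe with the largest was bfl-miR-92b-3p, at least 27.4-fold higher in gill, followed by bfl-miR-92a at least 17.8-fold and bfl-miR-92c at least 10.4-fold. Outside amphioxus, xbo-miR-92a was at least 24.95-fold higher in gill, at 42145 ± 2144 against 482 ± 1.4, and in intestine xtr-miR-92a was at least 4.04-fold higher than in hepatic caecum, at 1682 ± 84.3 against 530 ± 7.5. With the bounds included, 17 of the 17 core probes were lower in hepatic caecum than in gill (median log2 difference -3.61). Against intestine 10 of 17 were lower in hepatic caecum (median -1.27). For the counts with bounds the share over all miRNA probes is not given here, so nothing is read from them.

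The size of these differences depended on the scaling between arrays, while under each scaling tried their medians lay below those of all probes. Without normalization between arrays the medians of the miR-92 probes were -4.43, -5.84 and -1.24 for intestine minus gill, hepatic caecum minus gill and hepatic caecum minus intestine, and those of all probes -1.62, -1.77 and -0.06. The 3p-type differences from gill in the named probes kept their sign under the alternative settings that gave a value, 11 for intestine and 10 for hepatic caecum. Between hepatic caecum and intestine, sko-miR-92b changed sign in 7 of 10 settings (0.28 ± 1.75 as reported), and the lowest values were those of sko-miR-92a at -1.35 ± 0.30, bbe-miR-92c-3p at -1.27 and dre-miR-92a at -1.07 ± 0.63. The highest detected 3p-type values beside sko-miR-92b were dre-miR-92b at -0.45 ± 0.19 and xtr-miR-92b at -0.80 ± 0.07. The probe nearest above the hepatic caecum threshold was sko-miR-92a, at 663 ± 83.4.

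**Figure D3:**
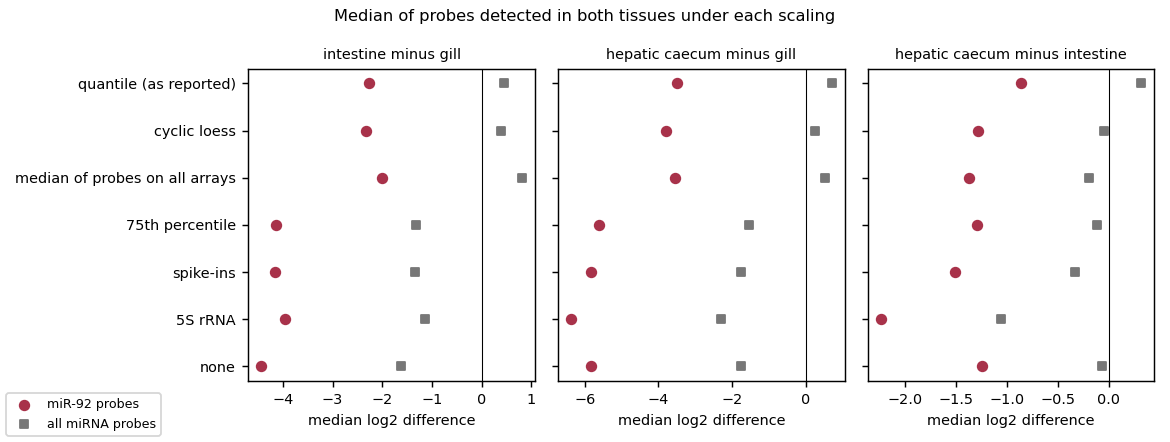
Median log2 difference of the miR-92 probes (circles) and of all miRNA probes (squares) detected in both organs of a pair, under each way of scaling the arrays. The median of the miR-92 probes lies below that of all probes in each panel and under each scaling, from -2.26 beside 0.45 with quantile normalization to -4.43 beside -1.62 with none for intestine minus gill.

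Other miRNAs with the same seed were compared next. Outside the number 92 and 25 the array held 19 probes whose bases 2 to 8 equal the amphioxus miR-92 seed. Of these, 3 were detected in gill and in intestine (background 27.0% and 11.9%) and 2 in hepatic caecum (background 7.18%). The 3 are printed with the seed in capitals, to show that they share little else with miR-92.
bbe-miR-2076-5p: aAUUGCACuagagugauuuguu
bbe-miR-2059-5p: uAUUGCACuguuuugcuuuga
bfl-miR-2063: uAUUGCACuaauuugcuuuuga

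The brightest was bbe-miR-2076-5p, at 36598 ± 7152 in gill, 14150 ± 1623 in intestine and 12601 ± 1700 in hepatic caecum. It stood in place 28 in gill, among the core miR-92 probes, and in places 19 and 15 in the other organs, above all of them. Its log2 differences from gill were 0.49 ± 0.33 in intestine and 0.81 ± 0.35 in hepatic caecum, which turned to -1.36 and -1.54 without normalization between arrays, where those of bbe-miR-92c-3p were -4.29 and -5.84. The probe bbe-miR-2059-5p had 3665 ± 201 in gill, 342 ± 124.2 in intestine and 441 ± 149 in hepatic caecum, and bfl-miR-2063 had 3986 ± 2518, 405 ± 187 and 695 ± 591, with spots that disagreed in gill and in hepatic caecum. By gill and intestine densities these probes were near bbe-miR-92d-3p. A shared seed thus did not go with a shared pattern over the organs for bbe-miR-2076-5p.

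**Figure D4:**
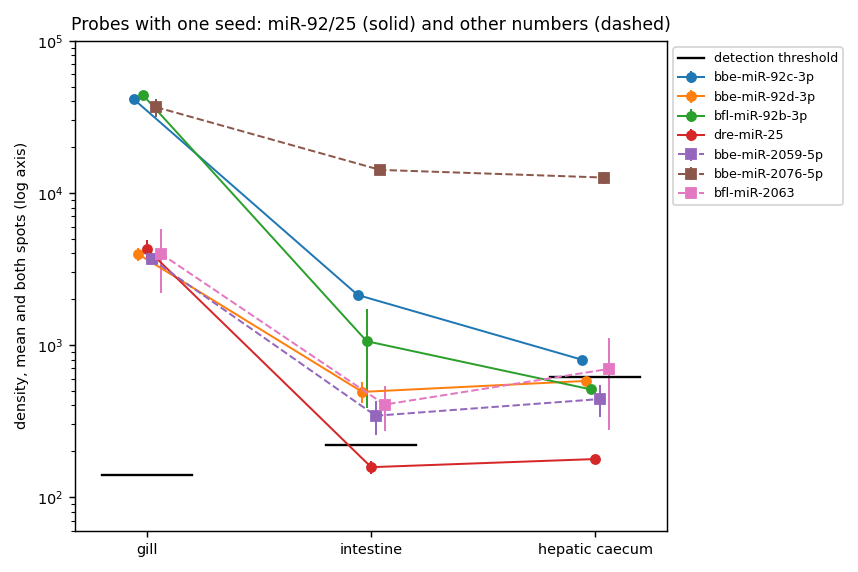
Density on the 3 arrays of 4 miR-92 and miR-25 probes (solid lines) and of the 3 detected probes of other numbers with the same seed (dashed lines), as means with bars that span both spots, on a log axis. Short black lines mark the detection thresholds. The probe bbe-miR-2076-5p has 12601 or more on each array, while bbe-miR-92c-3p goes from 41268 to 800.

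The vertebrate relatives miR-32, miR-363 and miR-367 were detected on no array (0 of 6 probes). Of 40 probes for miR-17, miR-18, miR-19, miR-20, miR-93 and miR-106, the cluster partners of miR-92 and miR-25 in vertebrates, 2 were detected in gill, 1 in intestine and 0 in hepatic caecum. The background shares were 27.0%, 11.9% and 7.18%. The one with the higher gill density was dre-miR-17a-3p at 294, and the other was pma-miR-17b at 150 in gill and 232 in intestine.

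The pattern of the miR-92 probes detected on all 3 arrays was a log2 level above their own mean by 1.99 in gill and of -0.51 in intestine and -1.46 in hepatic caecum. Euclidean distance over these 3 values was taken for the 116 probes detected on all arrays, 10 of them miR-92. With only the nearest probe of each miRNA number listed, the nearest others were dre-miR-125a at 1.92, bfl-miR-4866-5p at 1.93, bfl-miR-135a at 2.06, xtr-miR-217 at 2.11 and bfl-miR-216-5p at 2.12. The members' own median distance was 0.27 and that of the other probes 3.21, and 9 of the 10 members lay nearer than dre-miR-125a while cin-miR-92e-5p, at 4.45, lay farther. The centre was taken from the members themselves, over only 3 organs. The nearest, dre-miR-125a, had densities of 65388 in gill, near the top of the scanner range, 30706 in intestine and 15729 in hepatic caecum. The probe xtr-miR-217, of the pancreas markers, had 21612, 1163 and 2523 and bfl-miR-216-5p had 14147, 1739 and 1359.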

How the data were processed

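Each spot's median density in the deposited scanner files is, per the file headers, an intensity on a linear scale without background subtraction (other processing, scanner and software are not given in the sources used here). The deposited series table holds processed intensity values whose scale and background correction are unknown, and it was used as an alternative for intestine against gill. No sample column was unmapped (0 columns). Densities were corrected with normexp (offset 50), converted to log2, averaged over 2 spots and quantile-normalized across 3 arrays with limma 3.58.1 in R 4.3.3. Tables and figures used Python 3.11.15, pandas 2.3.3, scipy 1.17.1 and matplotlib 3.10.9. In these correction and normalization steps, control spots were used in fitting the background only. Outside them, blank spots set the detection thresholds and the densities above blank, and control spots were used to place the hepatic caecum grid. Spike-in and rRNA probes were used in the ratios of gill to intestine and in alternative scalings. A bound sets the level in one organ against the higher of the probe's own level and the lowest detected level in the other. The steps were also run on simulated copies of the gill array, in which some probes of middle level were raised or lowered by a known factor. These copies lacked the overall difference between the real arrays, so the run cannot decide between the ways of scaling. Named were all amphioxus members, the brightest per letter and arm, the largest and smallest differences and bounds, and those nearest the thresholds. Other members that are named, such as those printed for their base changes, were chosen after their values were seen. The members and lists were chosen with earlier results of these data known.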

Additional observations from a re-analysis of the deposited data

How the results depend on the processing

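The differences from gill of the named 3p-type probes detected in both organs kept their direction in the alternatives that gave a value. Under the median and MAD of the blank spots, 1 miR-25 probe was detected in intestine and 25 miR-92 probes in hepatic caecum. In hepatic caecum 22 miR-92 probes were then lower and 2 higher than in gill (cin-miR-92e-5p and the 3p-type odi-miR-92b, at 2.39). Of all 258 probes compared with gill under that rule, 50 were lower and 66 higher. In hepatic caecum 14 miR-92 probes were lower than in intestine (median -1.31), as were 48 of all 237 probes. With a density over 500 the hepatic caecum counts were 17 detected, 15 lower than gill and 7 lower than intestine, and 1 was higher in intestine than in gill. The counts of all probes were 20 of 135 lower than gill, 22 of 116 lower than intestine and 49 of 132 higher in intestine than in gill. Under the deposited names 0 passed the threshold of 22217 set by the blank spots as then named, so no differences were formed. Without normalization between arrays the medians were -4.43, -5.84 and -1.24 (intestine minus gill, hepatic caecum minus gill, hepatic caecum minus intestine), with 0 higher than gill in either organ and 8 lower for the last pair. Of all probes 19 of 197 and 12 of 117 were then higher than gill, and 22 of 116 lower for the last pair. In the same order, the 75th percentile gave -4.14, -5.60 and -1.30, spike-ins -4.15, -5.83 and -1.51, and 5S rRNA -3.96, -6.37 and -2.24. Each of these had 1 and 0 higher than gill, and for the last pair 8, 8 and 9 lower. Centring on the median of shared probes gave -2.004 for intestine minus gill, and -1.38 with 8 lower (24 of all 116) for hepatic caecum minus intestine. Cyclic loess gave -3.78 for hepatic caecum minus gill, and -1.28 with 8 lower (22 of all 116) for hepatic caecum minus intestine. Subtracting the blank mean left 5 lower there (16 of all 116), and the first spots gave 2 higher there (27 of all 118). The second spots gave 1 higher in intestine than in gill (75 of all 195), and the deposited table a median of -2.76 for that pair. For cin-miR-92e-5p the intestine minus gill value reversed to -0.33 without normalization, -0.032 with the 75th percentile and -0.050 with spike-ins, and hepatic caecum minus gill to -0.17, -0.69 (5S rRNA) and -0.16 (spike-ins). With the hepatic caecum array left out of the normalization, chosen after seeing the data, 23 were lower, 2 higher and the median -2.20. The share over all probes is not given for that setting. A further 95 counts and medians stayed within 1.5 times of the count or within the spot error of the median, as did 160 values of single probes or of their order. A further 224 of the latter moved more or changed sign. Among these the hepatic caecum minus intestine differences of sko-miR-92b (7 settings) and cin-miR-92e-5p (3 settings), under 2-fold as reported, changed sign. For sko-miR-92b these changes lay within its spot error of 1.75. The cause of these changes was not tested, and the high blank spots limit the hepatic caecum values.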
